A study of Homo sapiens with 20 samples.

Results

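The inhibitors of cyclin-dependent kinases (CDKs) are small proteins that hold back the kinases of the cell cycle, and their genes were followed here in Raji and LP-1 cells treated with an inhibitor of BET proteins, which read acetylated histones. Members were the genes CDKN1A, CDKN1B, CDKN1C, CDKN2A, CDKN2B, CDKN2C, CDKN2D and CDKN3, 8 in all, each taken by its probe set with a single gene symbol in the platform's table. Of these, 7 were measured, each by 1 probe set, among 14232 genes with such a probe set and 22011 probe sets on the array. No single-symbol probe set matched CDKN2C, which encodes p18 and is not analysed here.

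The CIP/KIP family (CDKN1A, encoding p21, CDKN1B, encoding p27, and CDKN1C, encoding p57) binds complexes of CDKs with their cyclins, among them those of CDK2 that start DNA replication. The INK4 family (CDKN2A, encoding p16, CDKN2B, encoding p15, and CDKN2D, encoding p19) binds CDK4 and CDK6 before the D cyclins can, which keeps the retinoblastoma protein active. CDKN3 encodes a phosphatase that removes an activating phosphate from CDK2. From its own promoter CDKN2A also makes ARF, which protects p53 from MDM2, and MYC is known to repress CDKN1A, CDKN1B and CDKN2B through the partner factor MIZ1.

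Total RNA was measured on 20 exon arrays in 10 groups of 2 biological replicates. Raji cells derive from a Burkitt lymphoma, a tumour of B cells, and LP-1 cells from a multiple myeloma, a tumour of their antibody-secreting descendants, the plasma cells. In each line the groups were cells given 500 nM of a BET inhibitor for 4 or 8 h, cells given 500 nM of its inactive enantiomer, the mirror-image molecule, for 4 or 8 h, and untreated cells at 0 h. The labels do not name the compound, and each line grew in its own medium, so line and medium cannot be told apart.

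All values are log2 expression from the authors' RMA summary, and a change is a difference of log2 means, so 1 unit is a factor of 2. Errors of changes are standard errors from limma, with 2 arrays per group and 1 estimate of the spread per probe set pooled over the 10 groups. Adjusted p-values are Benjamini-Hochberg values over all 22011 probe sets, and "rose" or "fell" is written at an adjusted p under 0.05. The p-values measure the spread between 2 replicates per group, and the untreated cells are those of 0 h alone. Probe sets differ in their response to the same amount of RNA, so levels are compared within a gene and not between genes. No value was tested against background, and a change in a gene at background could go unseen. In RNA from whole cultures, fewer cells of a kind and less RNA per cell cannot be told apart.

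Array medians lay between 5.13 and 5.39, and Pearson's r between replicates, across probe sets that are not independent, was 0.973 to 0.989. The B cell genes MS4A1, CD22 and CD79A had medians of 10.56, 9.38 and 8.73 in Raji, against 5.44, 4.42 and 4.39 in LP-1. The plasma cell genes IRF4, PRDM1 and TNFRSF17 had medians of 5.35, 5.93 and 4.34 in Raji, against 11.03, 10.04 and 8.84 in LP-1. Of 6 genes in each of these lists, 5 B cell genes were higher on all Raji arrays than on any LP-1 array (CIITA overlapped), and 6 plasma cell genes were lower. Genes of other cell types lay at a range of levels in both lines, with medians of 2.23 (CD3E) to 5.88 (NKG7) for 6 T and NK cell genes, 2.14 (LYZ) to 4.74 (CD14) for 3 myeloid genes and 1.63 (EPCAM) to 5.30 (COL1A1) for 4 epithelial and fibroblast genes. MYC, whose loss is the usual readout of BET inhibition in these cancers, fell by 1.40 ± 0.16 at both times in Raji, inhibitor against inactive enantiomer. In LP-1 it fell by 2.30 ± 0.16 at 4 h and fell by 1.85 ± 0.16 at 8 h (highest adjusted p = 0.00129 with limma).

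Setting the BET inhibitor against the enantiomer at equal dose and time asked which of these genes respond to the active stereoisomer. CDKN1B rose in Raji at 8 h, CDKN1A rose in LP-1 at 4 and 8 h, and CDKN2D rose in LP-1 at 8 h, each by a factor of 2.06 to 2.80. That is 4 of the 28 member tests over these 4 comparisons, and no member fell. In Raji 0 of 7 members rose at 4 h, where 1.44% of all probe sets did, and 1 of 7 at 8 h, where 0.827% did. In LP-1 1 of 7 rose at 4 h, where 0.377% of all probe sets did, and 2 of 7 at 8 h, where 3.76% did. The shares of all probe sets that fell were 0.341% and 1.05% in Raji and 1.9% and 1.97% in LP-1 at 4 and 8 h. At an unadjusted p under 0.05, limma had 2 members in Raji at each time, CDKN1B and CDKN2D, where 14.1% and 13% of all probe sets passed that threshold at 4 and 8 h. In LP-1 it had 1 at 4 h and 3 at 8 h, where 14.3% and 18.9% of all probe sets passed it. The median change of the 7 members was 0.17 and 0.19 in Raji at 4 and 8 h and 0.19 and 0.33 in LP-1, beside medians of 0.01, -0.00070, -0.04 and 0.06 over all probe sets.

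**Figure D1:**
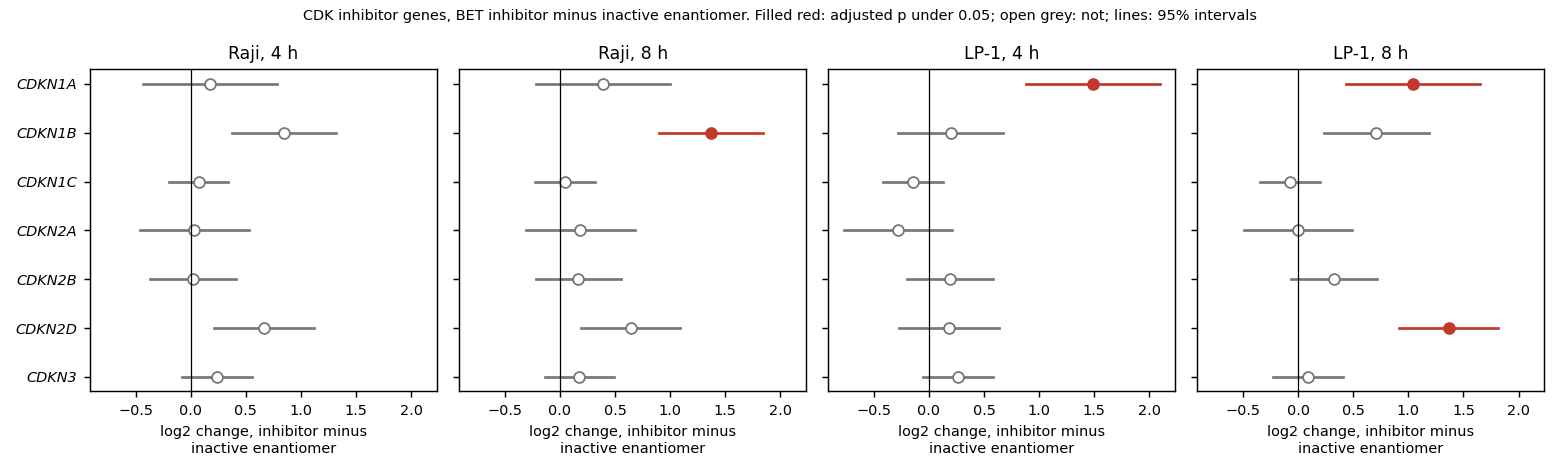
Log2 change with the BET inhibitor relative to its inactive enantiomer (x axis) for the 7 measured CDK inhibitor genes (rows), in Raji and LP-1 at 4 and 8 h. Points are limma estimates from 2 arrays per group, lines are 95% intervals, and filled red points have an adjusted p under 0.05: CDKN1B in Raji at 8 h (1.37), CDKN1A in LP-1 at 4 h (1.48) and 8 h (1.04), and CDKN2D in LP-1 at 8 h (1.36).

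CDKN1A, CDKN1B and CDKN2D are the members that rose in at least 1 comparison, and the bases before their starts are shown to let a reader see what kind of promoter each has. The sequences are the 250 bases upstream of the RefSeq start on GRCh38.p14, at chr6:36678464-36678713 on the plus strand for CDKN1A, chr12:12717118-12717367 on the plus strand for CDKN1B and chr19:10568980-10569229 on the minus strand for CDKN2D. They are written 5′ to 3′, and capitals mark the GC box GGGCGG and the CCAAT box CCAAT, each searched on both strands.
CDKN1A: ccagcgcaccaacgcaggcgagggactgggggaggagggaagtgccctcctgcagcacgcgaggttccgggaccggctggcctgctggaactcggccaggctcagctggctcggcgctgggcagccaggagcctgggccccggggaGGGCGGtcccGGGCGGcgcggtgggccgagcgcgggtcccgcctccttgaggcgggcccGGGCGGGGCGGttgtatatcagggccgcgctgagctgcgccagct
CDKN1B: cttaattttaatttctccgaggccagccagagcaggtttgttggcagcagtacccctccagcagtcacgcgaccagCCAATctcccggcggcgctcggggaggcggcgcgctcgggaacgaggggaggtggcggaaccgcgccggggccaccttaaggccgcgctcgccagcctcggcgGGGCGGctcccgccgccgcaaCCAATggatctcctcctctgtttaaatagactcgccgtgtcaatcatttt
CDKN2D: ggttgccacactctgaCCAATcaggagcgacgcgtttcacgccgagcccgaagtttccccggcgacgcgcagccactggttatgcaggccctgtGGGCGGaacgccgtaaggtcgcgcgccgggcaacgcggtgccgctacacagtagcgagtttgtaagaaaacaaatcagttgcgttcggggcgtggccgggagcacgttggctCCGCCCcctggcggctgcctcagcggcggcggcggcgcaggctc

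The GC box is the site that factors such as SP1 and the Krueppel-like factors bind, and the CCAAT box is bound by NF-Y. CDKN1A held 4 GC boxes, the last 2 overlapping by 1 base, and no CCAAT box. CDKN1B held 1 GC box and 2 CCAAT boxes, and CDKN2D held 2 GC boxes and 1 CCAAT box. Of the members that did not rise, CDKN2B held 2 GC boxes and no CCAAT box, and CDKN3 held 2 CCAAT boxes and no GC box. CDKN2A held 0 and 1 GC boxes at its 2 starts, and no CCAAT box. Among 35116 promoter windows of that length in the RefSeq table, 42.6% held a GC box, 24.3% held 2 or more and 13.9% held 3 or more. A CCAAT box was in 32.0% of them, and 9.53% held 2 or more. The E-box CACGTG, the preferred site of MYC with MAX, was in none of the windows of CDKN1A, CDKN1B and CDKN2D and in 6.34% of all windows. It was also in none of the windows of CDKN2A (2 starts), CDKN2B and CDKN3. No match says only that these letters are not in these 250 bases. The share of G and C was 76.4% for CDKN1A, 64.4% for CDKN1B and 67.6% for CDKN2D. It was 66.8% at both starts of CDKN2A, 66.4% for CDKN2B and 64.4% for CDKN3.

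CDKN1A, the gene of p21, is a target of p53 and a general brake on CDK activity. In LP-1 at 4 h it read 6.64 and 7.06 with the inhibitor, against 5.86 and 4.88 with the inactive enantiomer. At 8 h it read 7.02 and 6.46 with the inhibitor, against 5.61 and 5.79 with the inactive enantiomer. The arrays did not overlap at either time, and the inactive arrays at 4 h lay nearly 1 unit apart (SD 0.69). CDKN1A rose by 1.48 ± 0.28 at 4 h (2.80-fold, adjusted p = 0.0166), and the rise at 8 h was 1.04 ± 0.28 (2.06-fold, adjusted p = 0.0487). The call at 4 h was lost without inhibitor replicate 2 (1.27 ± 0.34, adjusted p = 0.0592) and without the low inactive replicate 2 (0.99 ± 0.26, adjusted p = 0.155). At 8 h it was lost without inhibitor replicate 1 (0.76 ± 0.33, adjusted p = 0.313), inactive replicate 1 (adjusted p = 0.199) or inactive replicate 2 (adjusted p = 0.126). Fitted on the LP-1 arrays alone, neither change passed (adjusted p = 0.123 and 0.172), and after subtraction of each array's median the change at 8 h did not (adjusted p = 0.0714).

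Against untreated LP-1 cells, which read 5.72 and 5.88, CDKN1A rose by 1.05 ± 0.28 with the inhibitor at 4 h (adjusted p = 0.0424), and the difference at 8 h was 0.94 ± 0.28 (adjusted p = 0.0621). The difference at 8 h passed with the lowest-expressed probe sets left out (adjusted p = 0.0363) and after quantile normalization (adjusted p = 0.033). With the inactive enantiomer the change from the same untreated arrays was -0.43 ± 0.28 at 4 h and -0.10 ± 0.28 at 8 h (adjusted p = 1 and 0.917). The call at 4 h was lost without inhibitor replicate 1 (1.26 ± 0.34, adjusted p = 0.0968), inhibitor replicate 2 (0.84 ± 0.34, adjusted p = 0.143), untreated replicate 1 (adjusted p = 0.198) or untreated replicate 2 (adjusted p = 0.137).

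In Raji CDKN1A did not pass in any comparison. At 4 h it read 6.27 and 6.14 with the inhibitor, against 5.93 and 6.14 with the inactive enantiomer, and at 8 h it read 6.26 and 6.46 with the inhibitor, against 6.17 and 5.78 with the inactive enantiomer. Both inhibitor arrays lay above both inactive arrays at each time, by a margin under 0.01 at 4 h. The changes were 0.17 (95% interval -0.43 to 0.78, adjusted p = 0.86) and 0.39 (95% interval -0.22 to 1.00, adjusted p = 0.664). The response in Raji minus that in LP-1 was -1.31 ± 0.40 at 4 h (unadjusted p = 0.0059, adjusted p = 0.168) and -0.65 ± 0.40 at 8 h (adjusted p = 0.686), so a difference between the lines did not pass the test. For these differences 0.114% and 0.245% of all probe sets were called at 4 and 8 h. Untreated Raji cells read 6.34 and 6.52, above every array of the inactive enantiomer in Raji, and the differences from untreated were -0.22 and -0.07 with the inhibitor and -0.40 and -0.46 with the inactive enantiomer at 4 and 8 h (lowest adjusted p = 0.788). Untreated Raji cells exceeded untreated LP-1 cells by 0.63 ± 0.28, which did not pass (adjusted p = 0.137, and 0.0306 after quantile normalization).

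CDKN1B, the gene of p27, which holds resting lymphocytes out of the cycle, showed the widest gap between the lines. Its lowest, median and highest values over 10 arrays were 4.96, 5.64 and 6.52 in Raji, against 8.17, 8.46 and 9.13 in LP-1. Untreated Raji cells read 5.60 and 5.71, against 8.60 and 8.45 in untreated LP-1 cells, a change of -2.87 ± 0.22 (7.32-fold, adjusted p = 4.46e-07). In that comparison 17.5% of all probe sets were lower in Raji and 6.79% higher. The call held without each of the 4 arrays in turn, with an adjusted p no higher than 1.74e-05.

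In Raji at 8 h CDKN1B read 6.39 and 6.47 with the inhibitor, against 4.96 and 5.16 with the inactive enantiomer. Each inhibitor array stood more than 1 unit above both inactive arrays, and the gene rose by 1.37 ± 0.22 (2.59-fold, adjusted p = 0.00895). At 4 h it read 5.68 and 6.52 with the inhibitor, against 5.09 and 5.42 with the inactive enantiomer. The groups did not overlap, but the inhibitor arrays lay apart (SD 0.59), and the change of 0.84 ± 0.22 did not pass (adjusted p = 0.0751). Without inhibitor replicate 1, the lower array, the change at 4 h was 1.26 ± 0.18 (adjusted p = 0.015), and without inhibitor replicate 2 it was 0.42 ± 0.18 (adjusted p = 0.551). With the lowest-expressed probe sets left out its adjusted p with all arrays was 0.0452. The call at 8 h was lost without inhibitor replicate 1 (adjusted p = 0.0546), inhibitor replicate 2 (adjusted p = 0.0708) or inactive replicate 1 (adjusted p = 0.0635), with changes of 1.41, 1.33 and 1.27. On the Raji arrays alone its adjusted p was 0.0841.

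The mean of untreated Raji cells lay between those of the compounds for CDKN1B. With the inhibitor the change from untreated was 0.45 ± 0.22 at 4 h and 0.78 ± 0.22 at 8 h (adjusted p = 0.451 and 0.0949). With the inactive enantiomer, set against the same untreated arrays, it was -0.40 ± 0.22 and -0.59 ± 0.22 (adjusted p = 0.705 and 0.996), and both inactive arrays lay below both untreated arrays at each time. The 1.37 at 8 h is the difference between 0.78 and -0.59. After quantile normalization the change of the inhibitor from untreated at 8 h passed (0.78 ± 0.19, adjusted p = 0.0463).

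In LP-1 CDKN1B did not pass at either time. At 8 h it read 9.13 and 8.87 with the inhibitor, against 8.17 and 8.40 with the inactive enantiomer, a change of 0.71 ± 0.22 with no overlap (adjusted p = 0.0831). At 4 h it read 8.46 and 8.54 with the inhibitor, against 8.25 and 8.36 with the inactive enantiomer (change 0.20, 95% interval -0.28 to 0.67). The response in Raji minus that in LP-1 was 0.65 ± 0.31 at 4 h and 0.66 ± 0.31 at 8 h, neither past the test (adjusted p = 0.343 and 0.563).

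CDKN1C, the gene of p57, which is imprinted and acts mostly in embryonic tissues, stayed between 4.80 and 5.38 on all 20 arrays. Inhibitor and inactive enantiomer differed by 0.07 and 0.05 at 4 and 8 h in Raji and by -0.14 and -0.07 in LP-1 (lowest adjusted p = 0.669), where both inhibitor arrays lay below both inactive arrays at each time. The 4 intervals together ran from -0.41 to 0.34, so changes of the measured value beyond 0.41 in either direction lay outside them. Signal over background was not tested for this probe set, and a change in RNA at background could go unseen. Untreated Raji minus untreated LP-1 was 0.12 ± 0.12.

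**Figure D2:**
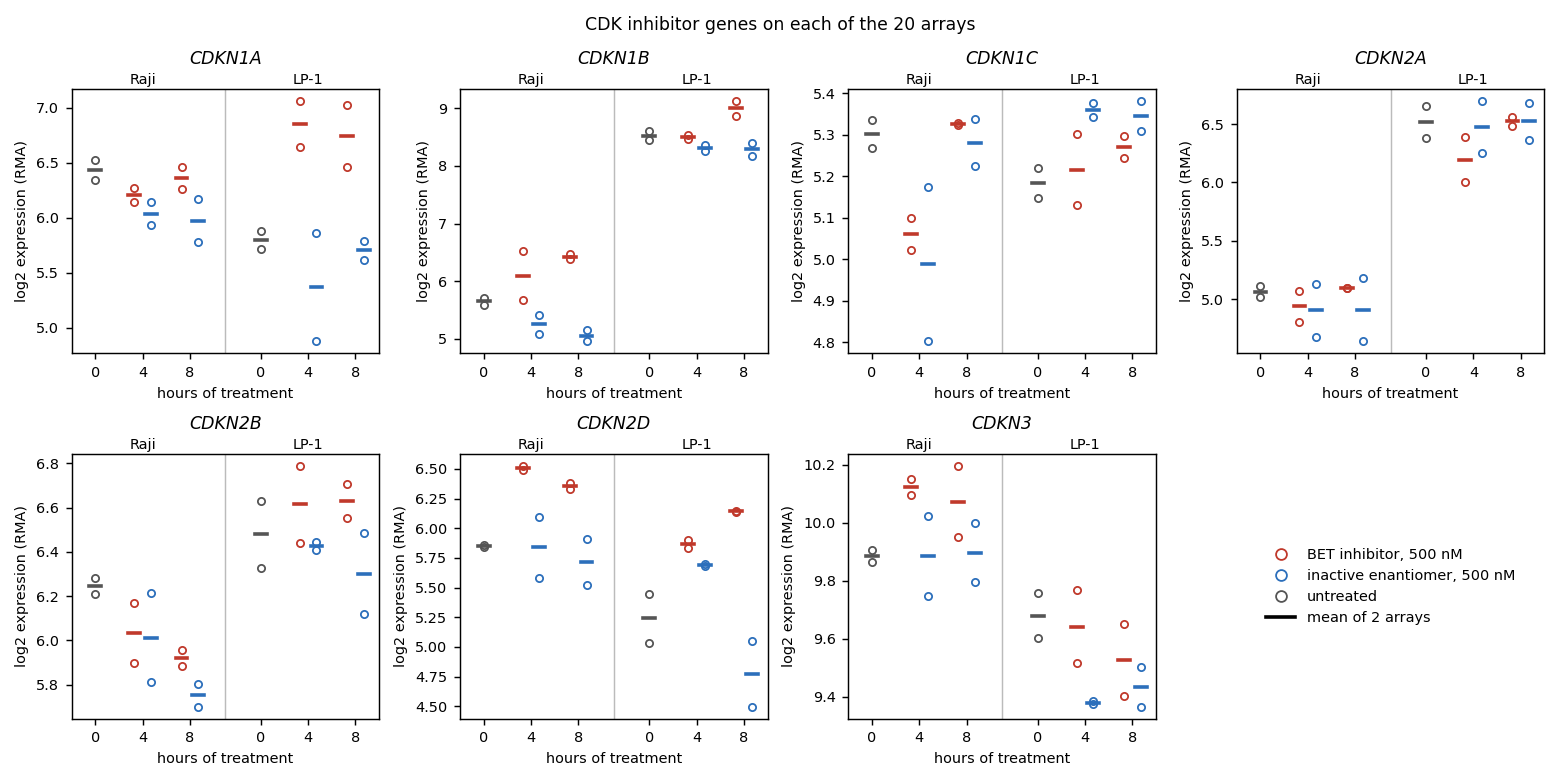
Log2 expression (y axis, on its own scale in each panel) of the 7 measured CDK inhibitor genes on all 20 arrays, by hours of treatment (x axis), with Raji left and LP-1 right of the grey line. Circles are single arrays and bars the means of 2: CDKN1B spans 4.96 to 6.52 in Raji and 8.17 to 9.13 in LP-1, and CDKN2A 4.64 to 5.18 in Raji and 6.01 to 6.70 in LP-1.

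CDKN2D, the gene of p19, was the INK4 gene with the largest change between inhibitor and inactive enantiomer. In LP-1 at 8 h it read 6.13 and 6.15 with the inhibitor, against 4.50 and 5.05 with the inactive enantiomer. Its inhibitor arrays lay close together (SD 0.01), one of the inactive arrays was the lowest of all LP-1 arrays, and the groups lay over 1 unit apart. CDKN2D rose by 1.36 ± 0.21 (2.58-fold, adjusted p = 0.00287). This is the 1 call among the 4 that held without each array compared in turn, with changes of 1.09 to 1.64 and adjusted p of 0.00375 to 0.0322. It also held on the LP-1 arrays alone (adjusted p = 0.0291).

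At 4 h in LP-1 CDKN2D read 5.90 and 5.84 with the inhibitor, against 5.68 and 5.70 with the inactive enantiomer, a change of 0.18 ± 0.21 (adjusted p = 0.767). The response at 8 h exceeded that at 4 h by 1.18 ± 0.29, which did not pass over all probe sets (unadjusted p = 0.00152, adjusted p = 0.135). For that difference the median over all probe sets was 0.11, and 0% of them were called (0 to 560 probe sets without 1 array at a time). The untreated LP-1 arrays read 5.45 and 5.03. From these, inhibitor cells differed by 0.63 ± 0.21 at 4 h (adjusted p = 0.095), and CDKN2D rose by 0.90 ± 0.21 at 8 h (adjusted p = 0.0195). Inactive cells differed by 0.45 ± 0.21 at 4 h and -0.46 ± 0.21 at 8 h (adjusted p = 0.999 and 0.315). Without untreated replicate 2 the rise of 0.90 was 0.69 ± 0.24 (adjusted p = 0.173), and it was also lost without inhibitor replicate 1 or 2 (adjusted p = 0.0811 and 0.0783) and on the LP-1 arrays alone (adjusted p = 0.0651).

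CDKN2D in Raji read 6.49 and 6.52 at 4 h with the inhibitor, against 6.10 and 5.58 with the inactive enantiomer. At 8 h it read 6.33 and 6.38 with the inhibitor, against 5.52 and 5.91 with the inactive enantiomer. The 4 inhibitor arrays were the 4 highest of the Raji arrays, and lay closer together than the inactive ones (SD 0.02 and 0.03 with the inhibitor, against 0.36 and 0.27 with the inactive enantiomer). The changes of 0.66 ± 0.21 and 0.64 ± 0.21 did not pass over all probe sets (unadjusted p = 0.00723 and 0.009, adjusted p = 0.144 and 0.168). The response in Raji minus that in LP-1 was 0.48 ± 0.29 at 4 h and -0.72 ± 0.29 at 8 h (adjusted p = 0.448 and 0.467). Untreated Raji cells read 5.84 and 5.86, against 5.45 and 5.03 in untreated LP-1 cells, higher by 0.61 ± 0.21 (adjusted p = 0.0485). That call was lost without untreated LP-1 replicate 2 (0.41 ± 0.24, adjusted p = 0.35) and without untreated Raji replicate 1 or 2 (adjusted p = 0.149 and 0.166).

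CDKN2A separated the lines on every array and did not pass for either compound. Its lowest, median and highest values over 10 arrays were 4.64, 5.08 and 5.18 in Raji, against 6.01, 6.43 and 6.70 in LP-1. Untreated Raji cells read 5.02 and 5.11, against 6.38 and 6.66 in untreated LP-1 cells, a change of -1.46 ± 0.23 (2.74-fold, adjusted p = 0.000301) that held without each array in turn (highest adjusted p = 0.00564). A single value per gene cannot tell the transcripts of p16 and ARF apart. With the inhibitor, relative to the inactive enantiomer, CDKN2A differed by 0.03 and 0.19 in Raji and by -0.28 and -0.00081 in LP-1 at 4 and 8 h. The groups overlapped in all 4 comparisons, and the intervals together ran from -0.77 to 0.68.

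CDKN2B, the gene of p15 and the neighbour of CDKN2A on chromosome 9, spanned 5.70 to 6.28 in Raji, against 6.12 to 6.79 in LP-1. Untreated Raji cells read 6.21 and 6.28, against 6.63 and 6.33 in untreated LP-1 cells, a change of -0.23 ± 0.18 that did not pass (adjusted p = 0.445). At 8 h it read 6.71 and 6.55 with the inhibitor in LP-1, against 6.49 and 6.12 with the inactive enantiomer, a change of 0.33 (95% interval -0.06 to 0.72, adjusted p = 0.36). Its other 3 changes were 0.19 in LP-1 at 4 h and 0.02 and 0.17 in Raji (lowest adjusted p = 0.702). In Raji both compounds lay below untreated cells at 8 h, by -0.33 ± 0.18 with the inhibitor and -0.49 ± 0.18 with the inactive enantiomer (adjusted p = 0.46 and 0.996).

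CDKN3 is highly expressed in dividing cells, where its message rises towards mitosis. Its lowest, median and highest values were 9.75, 9.98 and 10.19 in Raji, against 9.37, 9.51 and 9.77 in LP-1. The inhibitor and the inactive enantiomer differed by 0.24 and 0.18 in Raji and by 0.26 and 0.09 in LP-1 at 4 and 8 h, with standard errors of 0.15 (lowest adjusted p = 0.46). At 4 h both inhibitor arrays stood above both inactive arrays in each line. Untreated Raji minus untreated LP-1 was 0.21 ± 0.15 (adjusted p = 0.395).

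Across the members, 4 of 7 had both inhibitor arrays above both inactive arrays in each of the 4 comparisons, where 23.5% and 20.3% of all probe sets did in Raji at 4 and 8 h and 17.6% and 27.9% in LP-1. CDKN1A, CDKN1B and CDKN2D were among them every time, joined by CDKN3 at 4 h and CDKN2B at 8 h. The change was positive in all 4 comparisons for 5 of 7 members, and CDKN1C and CDKN2A were the exceptions. The share of all probe sets with a positive change in all 4 was not counted, so whether 5 of 7 is unusual was not tested. The same 2 arrays per group carry every member, so these counts are not independent of each other.

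Relative to untreated cells, each compound also carries the time in culture, and both are set against the same untreated arrays. With the inhibitor, 1 of 7 members rose at 4 h (CDKN1A) and 1 of 7 at 8 h (CDKN2D) in LP-1, where 0.727% and 1.97% of all probe sets did. No member fell there, while 6% and 5.68% of all probe sets did. In Raji limma called 0 of 7 at either time, where 0.663% and 1.04% of all probe sets rose and 0.595% and 1.22% fell. At an unadjusted p under 0.05 it had 1 and 2 members, where 12.1% and 14.1% of all probe sets passed that threshold. With the inactive enantiomer limma called none of the 7 in any of the 4 comparisons, where 0% of all probe sets were called in Raji at either time, and 0.0136% and 0.504% in LP-1 at 4 and 8 h. At an unadjusted p under 0.05 it had 1 and 2 members in Raji, beside 7.91% and 4.52% of all probe sets, and 0 and 1 in LP-1, beside 4.95% and 15.1%.

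**Figure D3:**
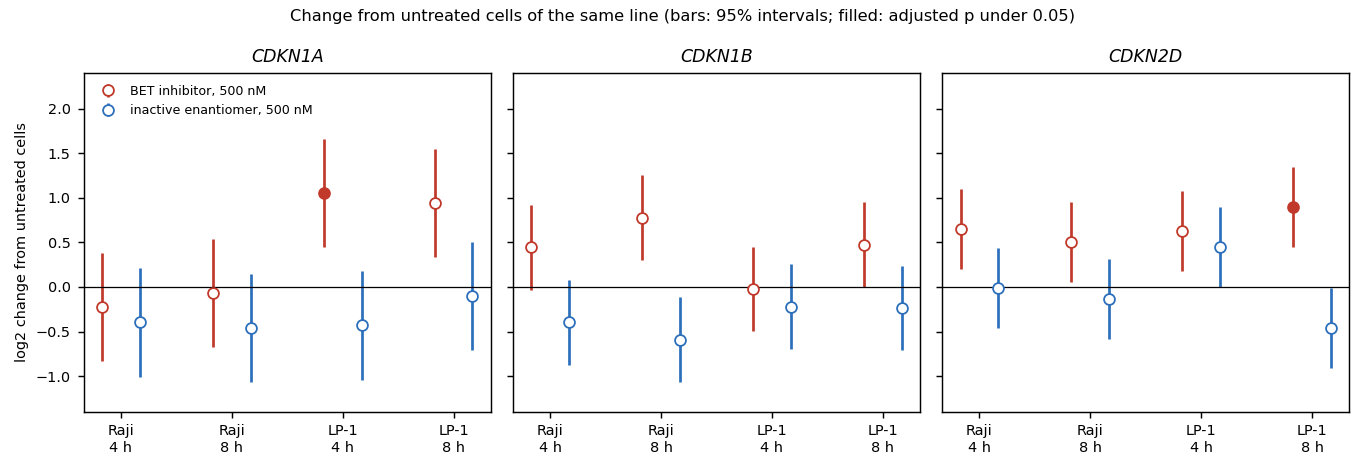
Log2 change from untreated cells of the same line (y axis) for CDKN1A, CDKN1B and CDKN2D with the BET inhibitor (red) and the inactive enantiomer (blue), by line and time (x axis). Points are limma estimates, bars 95% intervals and filled points have an adjusted p under 0.05: CDKN1A at 4 h (1.05) and CDKN2D at 8 h (0.90) in LP-1. CDKN1B in Raji at 8 h has open points, at 0.78 with the inhibitor and -0.59 with the inactive enantiomer.

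Genes around the CDK inhibitors were counted in lists of their targets, of the machinery that degrades the proteins, of regulators of their transcription and of other controls of CDK activity. Changes of these genes are of inhibitor against inactive enantiomer, so a rise or fall need not be one from untreated cells. Among CDKs, cyclins and pocket proteins 14 of 16 were measured. In Raji 1 rose at 4 h and 0 at 8 h, and in LP-1 0 rose at 4 h and 1 at 8 h, with none lower. Of all probe sets, 1.44% and 0.827% rose in Raji and 0.377% and 3.76% in LP-1 at 4 and 8 h. The list genes that rose were the cyclin E genes, whose products activate CDK2. In Raji CCNE1 rose by 0.76 ± 0.17 at 4 h (adjusted p = 0.0474). In LP-1 CCNE2 rose by 0.66 ± 0.18 at 8 h (adjusted p = 0.0473). There CCNE2 read 8.09 and 7.98 with the inhibitor, against 7.23 and 7.51 with the inactive enantiomer. Untreated LP-1 cells read 8.46 and 8.29, above both compounds. Both calls were lost without any 1 of the arrays compared and after subtraction of each array's median (adjusted p = 0.063 and 0.0843). CDK2 itself differed by 0.66 ± 0.15 in Raji at 4 h and by 0.52 ± 0.15 at 8 h in LP-1 (adjusted p = 0.0517 and 0.0749), and the difference in LP-1 passed without inhibitor replicate 2 (0.77 ± 0.15, adjusted p = 0.0156). CDK6 differed by -0.18 and -0.56 in Raji and by -0.25 and -0.34 in LP-1 at 4 and 8 h. CCND2 differed by -0.43 and 0.02 in Raji and by -0.28 and -0.61 in LP-1. Neither gene passed (lowest adjusted p = 0.203 with limma). The list medians were 0.09 and 0.03 in Raji and -0.12 and 0.25 in LP-1 at 4 and 8 h.

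SKP2, the ubiquitin ligase subunit that marks p27 for destruction, did not pass in either line. In Raji it read 8.99 and 9.02 at 4 h with the inhibitor, against 9.24 and 9.48 with the inactive enantiomer, and 8.80 and 9.03 at 8 h with the inhibitor, against 9.40 and 9.34 with the inactive enantiomer. The arrays did not overlap at either time, and the changes were -0.36 ± 0.13 and -0.46 ± 0.13 (adjusted p = 0.214 and 0.108, and 0.039 at 8 h after quantile normalization). In LP-1 it differed by -0.14 and -0.10. SKP1, another turnover gene, differed by 0.60 and 0.83 in Raji and by 0.48 and 0.71 in LP-1 at 4 and 8 h. DTL differed by 0.41 and 0.02 in Raji and by -0.12 and 0.54 in LP-1. CUL4A differed by -0.05 and -0.34 in Raji and by -0.46 and -0.47 in LP-1. None of these genes passed in the main fit (lowest adjusted p = 0.0685 with limma). Of the 12 of 14 turnover genes measured, 1 rose and none fell over the 4 comparisons. Of all probe sets, 0.377% to 3.76% rose in a comparison and 0.341% to 1.97% fell. The turnover gene that rose was FBXW7, the subunit that targets cyclin E and MYC. It rose by 0.71 ± 0.15 at 8 h in LP-1 (adjusted p = 0.0139). That call was lost without any 1 array (adjusted p = 0.0606 to 0.0809). The medians of this list were 0.23 and 0.05 in Raji and -0.13 and 0.18 in LP-1.

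Of 43 regulators of transcription 38 were measured. In Raji 1 rose and 2 fell at each time. In LP-1 1 rose and 3 fell at 4 h, and 7 rose and 3 fell at 8 h, with MYC among those that fell each time. The 4 calls in LP-1 at 4 h became 2 without inhibitor replicate 1, inactive replicate 1 or inactive replicate 2, and 6 without inhibitor replicate 2. The 10 calls at 8 h became 4 without inhibitor replicate 1, 5 without either inactive replicate and 8 without inhibitor replicate 2. Of all probe sets, the shares called higher and lower in each comparison are those given for the members, 0.377% and 1.9% in LP-1 at 4 h and 3.76% and 1.97% at 8 h. MDM4, a partner of MDM2 that keeps p53 inactive, read 6.78 and 7.14 in LP-1 at 4 h with the inhibitor, against 8.17 and 8.12 with the inactive enantiomer. It fell by 1.18 ± 0.18 at 4 h and fell by 0.85 ± 0.18 at 8 h (adjusted p = 0.00552 and 0.0158), each call lost without 3 of the 4 arrays (highest adjusted p = 0.0644 and 0.112). In Raji MDM4 differed by -0.28 and -0.39 (adjusted p = 0.554 and 0.387). KLF6, a Krueppel-like factor, differed by 0.11 and 0.19 in Raji and rose by 1.29 ± 0.21 at 8 h in LP-1 (adjusted p = 0.00392). The immediate early gene EGR1 rose by 1.00 ± 0.17 in Raji at 4 h and by 1.83 ± 0.17 and 1.16 ± 0.17 at 4 and 8 h in LP-1 (adjusted p = 0.0127, 0.000321 and 0.00223), the call in Raji lost without 3 of the 4 arrays (highest adjusted p = 0.117). At 8 h in Raji EGR1 differed by 0.16 ± 0.17 (adjusted p = 0.808). In LP-1 at 8 h EGR1 read 6.26 and 6.40 with the inhibitor, against 4.96 and 5.37 with the inactive enantiomer. Untreated LP-1 cells read 6.13 and 6.32, close to the inhibitor arrays and above the inactive ones.

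PRDM1, the plasma cell repressor of proliferation genes, fell by 1.29 ± 0.15 at 4 h and fell by 1.43 ± 0.15 at 8 h in Raji (adjusted p = 0.00205 and 0.000894). At 4 h in Raji it read 5.14 and 5.44 with the inhibitor, against 6.41 and 6.74 with the inactive enantiomer. At 8 h the values were 5.18 and 5.02, against 6.71 and 6.36. Untreated Raji cells lay between the compounds, at 5.93 on both arrays. In LP-1 PRDM1 differed by -0.15 and 0.36. STAT3, a factor that carries cytokine signals, rose in Raji at 8 h (0.71 ± 0.15, adjusted p = 0.0357), a call lost without any 1 array (highest adjusted p = 0.242). The medians of the regulators were -0.02 and -0.0067 in Raji and -0.08 and 0.17 in LP-1. Among other controls of CDK activity 9 of 12 were measured, and limma called 0 in Raji. Of all probe sets, 1.44% and 0.827% rose and 0.341% and 1.05% fell in Raji at 4 and 8 h. The shares that rose in LP-1 were 0.377% and 3.76%. In LP-1, the stress gene GADD45B rose at 4 h (0.73 ± 0.16, adjusted p = 0.0286), and its relative GADD45A (0.71 ± 0.15) and the mitotic phosphatase gene CDC25C (1.18 ± 0.28) rose at 8 h (adjusted p = 0.0146 and 0.0269). Each of these last 3 calls held without only 1 of the 4 arrays. For this list the medians were 0.08 and 0.09 in Raji and -0.0056 and 0.26 in LP-1.

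**Figure D4:**
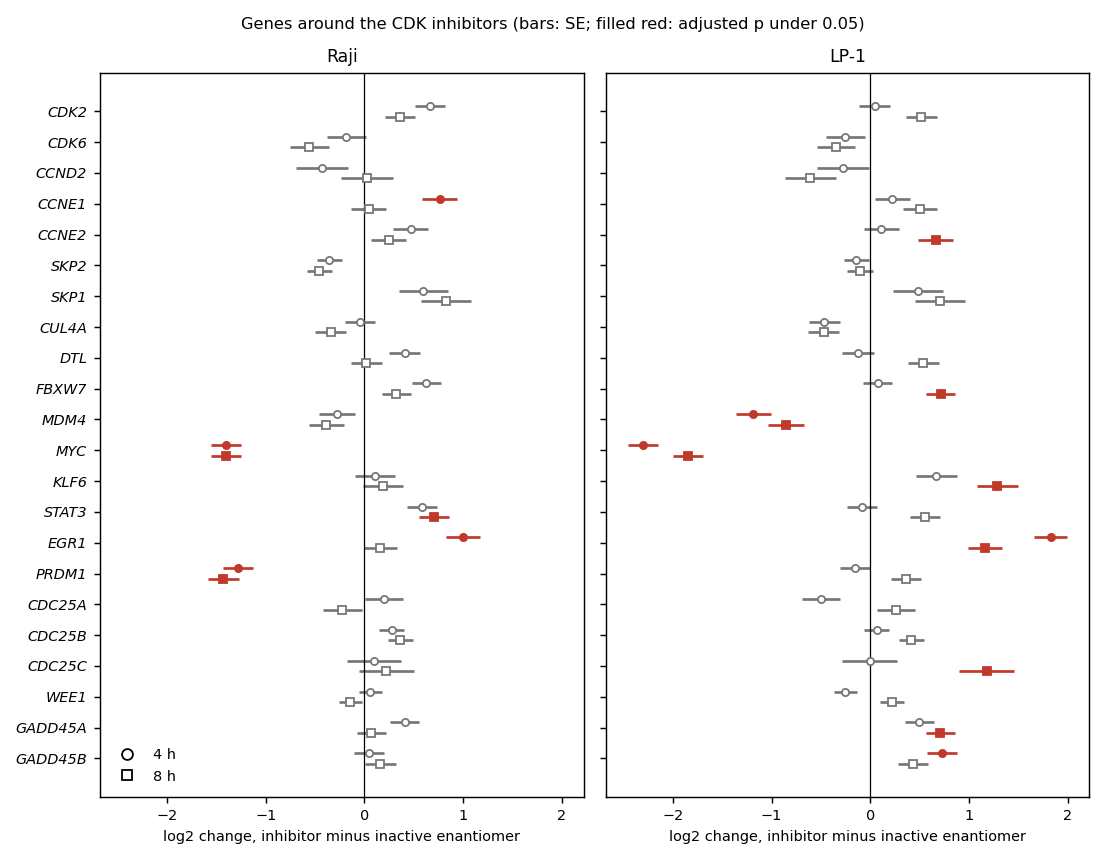
Log2 change with the BET inhibitor relative to its inactive enantiomer (x axis) for named genes around the CDK inhibitors (rows), in Raji (left) and LP-1 (right) at 4 h (circles) and 8 h (squares). Bars are standard errors and filled red points have an adjusted p under 0.05: MYC is lower in each comparison, PRDM1 is lower in Raji (-1.29 and -1.43), and MDM4 is lower in LP-1 (-1.18 and -0.85).

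Likeness was taken as Pearson's r over the 10 group means, after the mean of each line's own groups was subtracted, among genes with a single-symbol probe set. Nearest to CDKN1A were ALOX15 (r = 0.97) and ZFP36 (r = 0.95), to CDKN1B CLPTM1 and CDON (both 0.97), and to CDKN2D STX12 (0.99) and ZCCHC14 (0.97). CDKN2A was nearest to DIDO1 and KLHL9 (0.94 and 0.93), CDKN2B to SLC25A34 and OR5AP2 (0.95 and 0.94), CDKN1C to KMT2B and SLC12A9 (0.94 and 0.92), and CDKN3 to EQTN and PPP1R10 (0.93 and 0.90). Among the members the highest value was 0.70, between CDKN1B and CDKN2D, followed by 0.65 between CDKN1A and CDKN2B and 0.62 between CDKN1B and CDKN3. CDKN1A had 0.58 with CDKN2D and 0.49 with CDKN1B. These points share their arrays and came from a search over 14232 genes, and ALOX15 varied little (SD of the centred means 0.07, against 0.46 for CDKN1A). CLPTM1 and CDON also varied less than CDKN1B (SD 0.13 and 0.17, against 0.43). STX12 and ZCCHC14 had SDs of 0.33 and 0.28, against 0.43 for CDKN2D. ZFP36, which encodes a factor of mRNA decay, varied as widely as CDKN1A (SD 0.46).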

How the data were processed

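Per the submitters' processing notes, RMA in Affymetrix Expression Console made the values on hg19, with no versions given, and the deposited log2 values per transcript-level probe set were used as the authors left them. limma 3.58.1 (R 4.3.3) fitted 10 group means over the 20 arrays (10 residual and 2.59 prior degrees of freedom), over 17 comparisons, two-sided, with Benjamini-Hochberg adjustment over 22011 probe sets and a threshold of 0.05. The number of arrays limits the precision. The code was tested on simulated data.

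The platform's annotation gave symbols (14432 probe sets with 1 symbol, 2408 with several, 5171 with none), updated through Entrez identifiers for 14404. Promoters are from RefSeq on GRCh38.p14, and CDKN1A, CDKN1B, CDKN2A, CDKN2B, CDKN2D and CDKN3 matched. All members are named. Genes named from each list are among the 4 with the smallest p in LP-1 or in Raji, and some of those are not named. Members and lists were chosen with earlier results of these data known, so their calls are descriptions of chosen genes. Alternatives were another filter, scaling, prior, block or set of arrays.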

Additional observations from a re-analysis of the deposited data

How the results depend on the processing

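Of 693 results for single CDK inhibitor genes under settings other than leaving out arrays, 679 stayed on the same side of the threshold, and 14 passed in 1 fit and not the other. No called value changed sign. Most of these results were not called in the main fit, so the 679 says little about how stable the calls are. Calls were lost 5 times on the arrays of 1 line alone, 3 times with the replicate number as a block and 1 time after centring on array medians. Calls were gained 2 times with the lowest-expressed probe sets left out and 3 times after quantile normalization. The number of CDK inhibitor genes called for the inhibitor against the inactive enantiomer was 0 and 1 in Raji and 1 and 2 in LP-1 at 4 and 8 h. On the arrays of 1 line alone, with fewer residual degrees of freedom, these were 0 and 0 in Raji and 0 and 1 in LP-1, and against untreated LP-1 cells the counts of 1 at 4 and 8 h with the inhibitor became 0 and 0. The probe sets called, 391 and 414 in Raji and 502 and 1262 in LP-1 at 4 and 8 h, were then 49, 90, 76 and 347. With the lowest-expressed probe sets left out (7337 of 22011), the count was 1 in Raji at 4 h and 2 for the inhibitor against untreated cells in LP-1 at 8 h. After quantile normalization it was 1 in Raji and 2 in LP-1 for the inhibitor against untreated cells at 8 h, and CDKN1A was higher in untreated Raji than in untreated LP-1 (0.85, adjusted p = 0.0306). Centred on array medians, it was 1 in LP-1 at 8 h. The cause of these moves was not tested.

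Leaving out 1 array at a time, the count of CDK inhibitor genes called had a range of 0 to 1 in Raji at both 4 and 8 h, and in LP-1 of 0 to 1 at 4 h and 1 to 2 at 8 h. It was 0 to 0 and 0 to 1 for the inhibitor against untreated LP-1 cells at 4 and 8 h, and 2 to 3 between the untreated lines (3 with all arrays). The probe sets called numbered 27 to 154 at 4 h and 100 to 145 at 8 h in Raji, 64 to 971 at 4 h and 485 to 985 at 8 h in LP-1, and 3955 to 4199 between the untreated lines, against 5342 with all arrays. Of 19 calls of named genes around the CDK inhibitors, 9 held without each array in turn, 6 in some fits and 4 in none. The MYC calls, 1 in each of the 4 comparisons of inhibitor and inactive enantiomer, were among those that held. A lone array left in a group is assumed to vary like the other groups.

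Replicate numbers are shared across groups by the titles. Deviations of same-numbered arrays correlated at -0.00028 and 0.02 in Raji and -0.03 and 0.04 in LP-1. Over all 45 pairs of groups the values ran from -0.16 to 0.15. Each rests on 1 deviation per group, so whether same-numbered arrays were handled together cannot be told. The main fit did not pair them. With the replicate number as a block the count of CDK inhibitor genes called was 1 in LP-1 at 8 h, where CDKN1A no longer passed (adjusted p = 0.0592), and 0 for the inhibitor against untreated LP-1 cells at 4 h, where CDKN1A did not pass either (adjusted p = 0.0514), and CDKN2D no longer passed between the untreated lines (adjusted p = 0.0606). Other probe sets of a member could not be tried, since each had 1. Signal over background was not tested.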
